A study of Mus musculus with 11 samples.

Results

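The Janus kinases (JAKs) and the signal transducers and activators of transcription (STATs) were followed at the transcript level in BV2 cells, which are mouse microglia kept as a transformed cell line. The genes were taken by symbol, namely the kinases Jak1, Jak2, Jak3 and Tyk2 and the transcription factors Stat2, Stat3, Stat4, Stat5a and Stat6, which make 9 of the 36529 genes in the count files. RNA-sequencing counts came from 11 samples in 2 experiments. In the first, 3 samples received nApoE4, an amino-terminal fragment (residues 1 to 151) of human apolipoprotein E4, at 25 μg/ml for 5 h, and 3 control samples are called ControlA. In the second, 2 samples received nApoE3, the same stretch of apolipoprotein E3, with dose and duration unchanged, and 3 control samples are called ControlB. The fragments differ at a single residue, which is cysteine in ApoE3 and arginine in ApoE4, and both carry a His tag. The study's methods give the controls conditioned media, while the labels name PBS as the vehicle. All samples are of 1 cell line, and the study's statistics section calls the averaged measurements independent without saying whether the samples of a group were separate cultures. The p-values measure the spread between these samples, which may in part be technical.

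Counts on genes came to between 39732710 and 44162511 per sample in the ControlA and nApoE4 samples and to between 55809688 and 69768666 in the ControlB and nApoE3 samples. Levels are given below in CPM, the count of a gene relative to the library size after TMM scaling over all 11 samples. ControlA replicate 2 stood somewhat apart from the other samples of its group, with a chi-square per degree of freedom over genes of 25.8 and 47.9 against them and 7.85 between them, and the 7 members called with nApoE4 were also called without it. Of 13 microglia markers, Csf1r (676 to 814 CPM), Cd68, Itgam, Spi1 and Tyrobp were read at high levels in every sample. In contrast, P2ry12 had no count in any sample, and Sall1 had at most 2, Aif1 at most 10 and Cx3cr1 at most 43. Tmem119 lay between 1.25 and 9.15 CPM, and Trem2 varied between 0.372 and 60.5 CPM. The summed level of the microglia markers was 3420 to 3847 CPM in ControlA, 3254 to 3350 CPM with nApoE4, 2339 to 2458 CPM in ControlB and 2485 to 2500 CPM with nApoE3. Gfap, which defines astrocytes, had at most 4 counts in a sample, and the lymphocyte markers summed to at most 0.352 CPM. The sum of the 5 astrocyte markers, nearly all from the glutamate transporter gene Slc1a2, went from 1.20 to 1.39 CPM in ControlA to 6.02 to 7.02 CPM with nApoE4, and from 1.07 to 1.30 CPM in ControlB to 4.36 to 4.53 CPM with nApoE3. The neuron markers, mostly Tubb3, summed to 1.95 to 2.61 CPM in ControlA and 5.32 to 6.34 CPM with nApoE4, and to 1.12 to 1.41 CPM in ControlB and 1.47 to 1.48 CPM with nApoE3. The oligodendrocyte markers, mostly Mbp, summed to 11.4 to 14.2 CPM in ControlA, 9.33 to 11.8 CPM with nApoE4, 24.1 to 24.6 CPM in ControlB and 22.2 to 25.4 CPM with nApoE3, with Mog at 0 in every sample. The part of these markers in the results was not tested.

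JAKs are tyrosine kinases bound to the tails of cytokine receptors. When a cytokine joins its receptor chains, the JAKs activate each other and phosphorylate the receptor, STATs dock there and are phosphorylated in turn, and the STATs then pair, enter the nucleus and bind DNA. Most STAT pairs recognise a palindromic element named GAS, and Stat2 together with Irf9 recognises the interferon-stimulated response element, ISRE. In microglia the route carries the signals of interferons, the interleukin-6 and interleukin-10 families, interleukin-4 and some colony-stimulating factors. The activation of these proteins lies in their phosphorylation, which read counts do not measure, so all values below concern the amount of transcript.

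The promoters of the members were read from RefSeq on the mouse build GRCm38.p6, as 250 bases before to 50 bases after each annotated start, which gave 11 promoters for the 9 genes. Both strands were searched for a GAS-like string, TTCNNNGAA, and an ISRE-like string, which is GAAA, any pair of bases and GAAA again. The GAS-like string was in 0 of the 11 promoters and in 8.30% of all 32851 promoters. The ISRE-like string was in 2 of the 11 and in 3.44% of all promoters. The promoters of Stat2 and Jak2 are shown because these genes had the largest rises among STATs and JAKs, and 30 bases of the second Stat4 promoter are shown because it holds the other ISRE-like match. All are on the plus strand, and capitals mark the ISRE-like string. In Stat2 (chr10:128270248-128270497) the match lies 222 to 213 bases before the start, and its letters are GAAACTGAAA on the opposite strand. In Jak2 (chr19:29251553-29251802) neither string occurs, and 80.8% of the letters are G or C against 56.8% in Stat2. In Stat4 (chr1:52008133-52008162) the match lies 97 to 88 bases before the start. A match describes the letters and does not show a bound site.
Stat2: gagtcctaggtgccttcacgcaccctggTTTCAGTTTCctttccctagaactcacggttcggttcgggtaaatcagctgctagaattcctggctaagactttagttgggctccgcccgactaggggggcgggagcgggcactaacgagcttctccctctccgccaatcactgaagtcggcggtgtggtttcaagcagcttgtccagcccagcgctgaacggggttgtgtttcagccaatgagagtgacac
Jak2: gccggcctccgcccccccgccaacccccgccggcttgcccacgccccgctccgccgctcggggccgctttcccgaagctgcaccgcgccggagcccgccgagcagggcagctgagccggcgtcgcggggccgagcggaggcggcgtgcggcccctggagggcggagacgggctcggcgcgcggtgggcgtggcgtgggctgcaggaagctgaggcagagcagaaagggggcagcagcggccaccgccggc
Stat4: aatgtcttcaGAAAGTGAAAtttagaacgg

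To ask which genes of the pathway changed with treatment, the treated samples of each experiment were set against the controls of that experiment. With nApoE4, Jak2, Tyk2, Stat2, Stat3 and Stat5a rose and Jak3 and Stat6 fell, so that 7 of the 8 members with enough counts to be tested were called (edgeR quasi-likelihood F test, Benjamini-Hochberg adjusted p under 0.05), against 57.2% of all genes tested (28.6% higher and 28.6% lower). With nApoE3, Jak1, Jak2, Tyk2, Stat2 and Stat3 rose and Jak3, Stat5a and Stat6 fell, which is 8 of 9 members tested against 67.7% of genes (33.1% higher and 34.6% lower). So many genes were called that the number of members called says little by itself, and the results lie in the size and direction for each member. The samples of the groups compared did not overlap for any member called, as was so for 63.6% of genes with nApoE4 and for 77.6% with nApoE3. The counts are of bulk RNA, so a change in every cell and a change in a share of the cells cannot be told apart.

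Jak2 (chromosome 19, 29251803 to 29313095, plus strand) had the largest change of the 4 kinases. It serves the receptors for interferon gamma and some colony-stimulating factors, among others. Its level was 25.0, 26.4 and 26.0 CPM in the ControlA samples and 111, 113 and 117 CPM with nApoE4. In the second experiment it was 41.9, 43.3 and 42.4 CPM in the controls and 140 and 139 CPM with nApoE3. Every treated sample was far above every control, and samples of a group lay within a few CPM of each other. Jak2 had a log2 fold change of 2.15 (SE 0.057, adjusted p = 2.43e-09 by edgeR), a rise of 4.43-fold, with nApoE4 and 1.71 (SE 0.028, adjusted p = 1.12e-13), or 3.27-fold, with nApoE3. Among all genes tested, 5.17% and 7.06% had a larger change in size with nApoE4 and nApoE3.

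Tyk2 (chromosome 9, 21104068 to 21131393, minus strand) is bound to chains of the receptors for type I interferon, interleukin-10 and interleukin-12. It was at 45.8, 39.9 and 48.1 CPM in ControlA and at 118, 126 and 117 CPM with nApoE4, and at 29.0, 28.1 and 26.6 CPM in ControlB and at 64.9 and 60.2 CPM with nApoE3. Both treated groups were above their controls, and the nApoE3 samples lay between ControlA and the nApoE4 samples. These are log2 fold changes of 1.44 (SE 0.078, adjusted p = 2.64e-07), or 2.70-fold, with nApoE4 and of 1.16 (SE 0.044, adjusted p = 1.92e-10), or 2.23-fold, with nApoE3. Of the merged exons of Tyk2, 8.07% also belong to 1700084C06Rik on the other strand, and whether the counting used the strand is not given in the sources used here.

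Jak1 (chromosome 4, 101151974 to 101265282, minus strand), which pairs with the other kinases on interferon and interleukin receptors, was the most abundant JAK and changed little. Its level was 203, 206 and 215 CPM in ControlA and 211, 215 and 203 CPM with nApoE4, and these groups overlapped. It was 242, 241 and 241 CPM in ControlB and 276 and 281 CPM with nApoE3, which did not overlap. Its log2 fold change with nApoE4 was 0.019, with a 95% confidence interval of -0.11 to 0.15 and an adjusted p of 0.801. With nApoE3 it was 0.20 (SE 0.021, adjusted p = 3.65e-06), a rise of 1.15-fold that was smaller in size than the change of 66.8% of genes tested.

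Jak3 (chromosome 8, 71676383 to 71690577, plus strand), the partner of the common gamma chain of the interleukin-2 receptor family, was the kinase that fell with both fragments. Its level was 28.9, 27.4 and 33.2 CPM in ControlA and 22.1, 23.9 and 19.8 CPM with nApoE4, then 14.0, 13.4 and 14.2 CPM in ControlB and 11.9 and 10.8 CPM with nApoE3. The treated samples lay below their own controls in both experiments, and all samples of the second experiment lay below all of the first. The log2 fold change was -0.44 (SE 0.094, adjusted p = 0.00303) with nApoE4 and -0.30 (SE 0.057, adjusted p = 5.07e-04) with nApoE3. Jak3 shares 7.55% of its merged exons with Insl3 on the same strand, and reads there can be left unassigned.

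**Figure D1:**
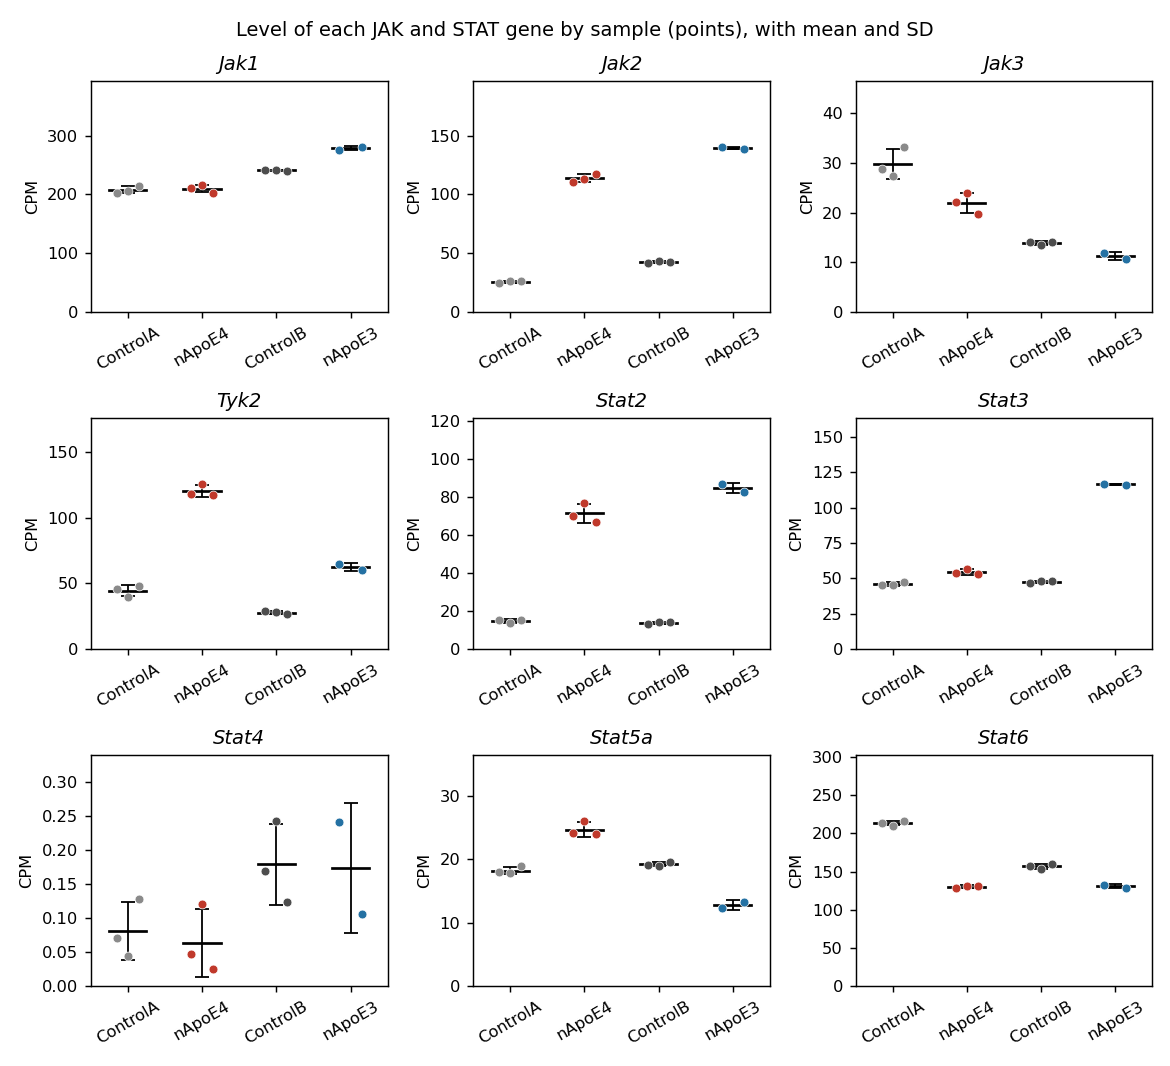
Levels in CPM (vertical axes, each from 0) of the 9 JAK and STAT genes in the 4 groups, with a point for each sample, a horizontal bar for the mean and error bars for the SD. Jak2, Tyk2 and Stat2 stand above the controls with both fragments, Stat3 reaches 117 CPM with nApoE3 against 54.5 CPM with nApoE4, Stat5a lies above its control with nApoE4 and below it with nApoE3, and Stat4 stays under 0.25 CPM.

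Stat2 (chromosome 10, 128270498 to 128292853, plus strand), which carries the type I interferon signal together with Irf9, had the largest change of all members with either fragment. It was at 15.2, 13.7 and 15.5 CPM in ControlA and at 70.02, 77.0 and 67.1 CPM with nApoE4, and at 13.3, 14.1 and 14.2 CPM in ControlB and at 86.8 and 82.9 CPM with nApoE3. The control groups of both experiments lay at like levels, and the treated groups stood well apart from them. Stat2 had a log2 fold change of 2.27 (SE 0.078, adjusted p = 1.15e-08), or 4.83-fold, with nApoE4 and 2.61 (SE 0.039, adjusted p = 6.02e-14), or 6.10-fold, with nApoE3. A larger change in size was found for 4.56% and 3.22% of genes tested. Its promoter is the one of the 8 members that passed the count filter in both comparisons that holds the ISRE-like string printed above.

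Stat3 (chromosome 11, 100886806 to 100939594, minus strand), which carries the signals of interleukin-6 and interleukin-10, rose with both fragments but to different levels. It was at 45.4, 45.5 and 47.7 CPM in ControlA and at 53.8, 56.8 and 52.98 CPM with nApoE4, and at 47.005, 48.1 and 47.9 CPM in ControlB and at 117 and 116 CPM with nApoE3. The control samples of both experiments lay between 45.4 and 48.1 CPM, the nApoE4 samples just above them and the nApoE3 samples far above all others. The log2 fold change was 0.24 (SE 0.057, adjusted p = 0.00462), or 1.18-fold, with nApoE4 and 1.28 (SE 0.028, adjusted p = 1.11e-12), or 2.43-fold, with nApoE3. With nApoE4, 62.3% of genes tested changed more in size, and with nApoE3, 11.4%.

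Stat5a (chromosome 11, 100859351 to 100885169, plus strand) acts downstream of the receptors for the colony-stimulating factor GM-CSF, interleukin-3 and prolactin. It was at 18.03, 17.8 and 18.9 CPM in ControlA and at 24.2, 26.03 and 23.98 CPM with nApoE4, and at 19.1, 19.03 and 19.6 CPM in ControlB and at 12.3 and 13.4 CPM with nApoE3. Thus it was the one member that rose with one fragment and fell with the other, from controls that lay close together. On the log2 scale the change was 0.44 (SE 0.066, adjusted p = 2.92e-04) with nApoE4 and -0.59 (SE 0.050, adjusted p = 4.08e-07) with nApoE3. Stat5a and Stat3 are neighbours that are read towards each other, 1636 bases apart in RefSeq, and share 72 exon bases in GENCODE. Of the 75-base windows of the longest Stat5a transcript, 6.15% also occur in transcripts of other genes, so that reads there could not be assigned to a single gene, and its level is uncertain to that extent.

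Stat6 (chromosome 10, 127642955 to 127660987, plus strand), the factor of interleukin-4 and interleukin-13, fell with both fragments. It was at 214, 210 and 216 CPM in ControlA and at 128, 132 and 131 CPM with nApoE4, and at 158, 154 and 160 CPM in ControlB and at 132 and 129 CPM with nApoE3. The treated groups ended at the same level, 130 ± 1.90 CPM (SD, n = 3) and 131 ± 2.37 CPM (SD, n = 2), from controls that differed. The log2 fold change was -0.71 (SE 0.054, adjusted p = 2.91e-06) with nApoE4 and -0.27 (SE 0.027, adjusted p = 1.94e-06) with nApoE3, which are levels 1.63-fold and 1.21-fold lower.

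Stat4 (chromosome 1, 51987106 to 52107189, plus strand), which carries the interleukin-12 signal in T cells and natural killer cells, was at the limit of detection. Its counts were 3, 2 and 6 in ControlA and 2, 5 and 1 with nApoE4, and 12, 15 and 7 in ControlB and 14 and 6 with nApoE3. It passed the filter on low counts in the second experiment alone, where the log2 fold change was -0.05 (SE 0.48, adjusted p = 0.931) with a 95% confidence interval of -1.11 to 1.00. At this depth a change of Stat4 within that interval was not detectable, and 26.7% of its merged exons also belong to Gm28177 on the same strand.

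Whether the fragments differed was tested as the nApoE4 effect minus the nApoE3 effect over all 11 samples. With nApoE4 the rise of Stat3 and Stat2 was smaller and the fall of Stat6 larger than with nApoE3, the rise of Jak2 was larger, and Stat5a rose where it fell with nApoE3. Jak1, whose change with nApoE4 did not pass, was called for a lower change than with nApoE3. Thus 6 of the 8 members tested were called, 2 higher and 4 lower, against 28.3% of genes tested (14.4% higher and 13.9% lower). The difference was -1.05 (SE 0.063, adjusted p = 1.67e-07) for Stat3 and 1.03 (SE 0.082, adjusted p = 1.51e-06) for Stat5a, on the log2 scale, and 10.4% and 10.8% of all genes tested had a larger one. It was -0.45 (SE 0.058, adjusted p = 8.91e-05) for Stat6 and 0.43 (SE 0.063, adjusted p = 2.54e-04) for Jak2. For Stat2 it was -0.35 (SE 0.093, adjusted p = 0.0139), and without nApoE3 replicate 1 the call was lost (-0.31, adjusted p = 0.0697).

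For Jak1 the difference was -0.19 (SE 0.062, adjusted p = 0.0348), and this call rested on single samples. It was kept when ControlA replicate 1, ControlA replicate 2 or nApoE4 replicate 2 was left out and lost when any one of the other 8 samples was, with differences from -0.21 to -0.17 over the 11 omissions and a highest adjusted p of 0.131. For Tyk2 the difference of 0.27 did not pass (adjusted p = 0.0639, 95% confidence interval 0.050 to 0.48), but passed without ControlA replicate 3 (0.32, adjusted p = 0.0174). For Jak3 it was -0.15 (adjusted p = 0.420) with an interval of -0.42 to 0.12. Each fragment was given in 1 experiment, with deeper sequencing in the second, so a difference between fragments and one between experiments cannot be told apart. With counts thinned to the smallest library, the 6 calls held and the difference for Tyk2 passed as well (0.30, adjusted p = 0.0352).

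**Figure D2:**
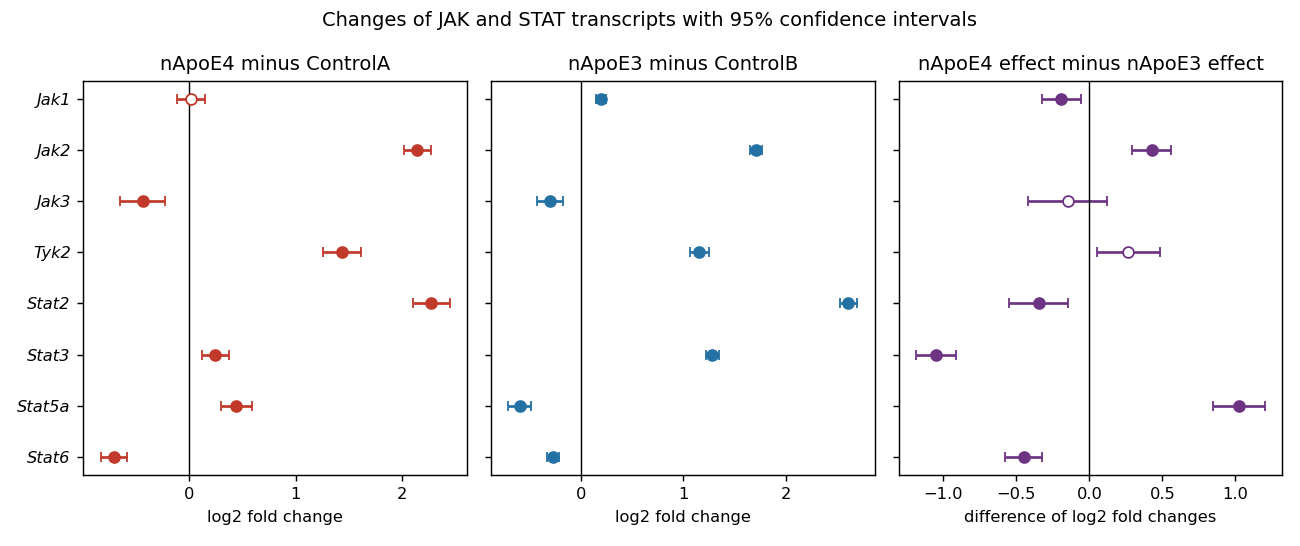
Log2 fold changes of 8 JAK and STAT genes with nApoE4 and with nApoE3 against their own controls, and the difference between these changes (horizontal axes, which differ in range), with 95% confidence intervals from the edgeR fits. Filled points have an adjusted p under 0.05, Stat4 is left out for its low counts, and the interval of Stat5a lies above 0 with nApoE4 and below 0 with nApoE3.

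The levels before treatment were set side by side by comparing ControlB with ControlA. Jak2 and Jak1 were higher and Jak3, Tyk2 and Stat6 lower in ControlB, 5 of 8 members tested against 69.3% of genes tested (34.4% higher and 34.9% lower). For these 5 the control groups did not overlap, as for 74.1% of genes. Jak3 had the largest difference, with a log2 fold change of -1.12 (SE 0.076, adjusted p = 5.87e-06), a level 2.17-fold lower in ControlB. It was 0.71 (SE 0.044, adjusted p = 3.82e-06) for Jak2, -0.69 (SE 0.075, adjusted p = 7.07e-05) for Tyk2, -0.46 (SE 0.041, adjusted p = 2.69e-05) for Stat6 and 0.20 (SE 0.041, adjusted p = 0.00269) for Jak1. Thus all 4 kinases differed between the control groups, and of the 4 STATs tested Stat6 alone was called. Stat3 differed by 0.029 (95% confidence interval -0.069 to 0.13), Stat5a by 0.061 (-0.054 to 0.18) and Stat2 by -0.11 (-0.27 to 0.043). Stat2 passed without ControlA replicate 2 (-0.16, adjusted p = 0.0211), the sample that stood apart. The microglia markers also differed between the control groups, 7 lower and 1 higher in ControlB of 10 tested, and their part in these differences was not tested.

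To compare genes with each other, CPM were divided by the length of the merged exons in kilobases (GENCODE annotation of GRCm38.p6). In ControlA, Stat6 led with 48.4 ± 0.642 CPM per kb (SD, n = 3) before Jak1 with 28.8 ± 0.857. Tyk2 (6.50), Jak3 (5.57), Jak2 (5.12) and Stat3 (4.85) followed with ranges over samples that overlapped from each to the next, then Stat5a (2.56) and Stat2 (2.50), which overlapped too, and Stat4 (0.021) was last. With nApoE4 the order became Stat6 (29.5 CPM per kb) and Jak1 (29.0), which overlapped, then Jak2 (22.6), Tyk2 (17.5), Stat2 (12.04), Stat3 (5.73), Jak3 (4.10) and Stat5a (3.47), where no neighbours overlapped. Stat2 so went from next to last to the fifth place.

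In ControlB the order per kb was Stat6 (35.7), Jak1 (33.4), Jak2 (8.46), Stat3 (5.01), Tyk2 (4.06), Stat5a (2.70), Jak3 (2.59) and Stat2 (2.34). With nApoE3 it was Jak1 (38.5), Stat6 (29.7), Jak2 (27.8), Stat2 (14.3), Stat3 (12.2), Tyk2 (9.11), Jak3 (2.12) and Stat5a (1.80), and in both groups neighbours did not overlap. The lowest member above Stat4 was Stat2 in both control groups and Stat5a with either fragment. The length decides some of these places. Divided by the longest transcript in place of the merged exons, Jak1 was above Stat6 also with nApoE4 and in ControlB, Tyk2 was above Jak2 with nApoE4, and Stat5a was above Jak3 with either fragment.

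The make-up of each family was taken as the share of a gene in the summed CPM per kb of the 4 JAKs or the 5 STATs listed here. The sum over the JAKs was 45.97 ± 1.85 CPM per kb in ControlA (SD, n = 3) and 73.3 ± 1.55 with nApoE4 (SD, n = 3), and 48.5 ± 0.240 in ControlB (SD, n = 3) and 77.5 ± 0.390 with nApoE3 (SD, n = 2). The share of Jak1 went from 62.6% to 39.6% with nApoE4 and from 68.9% to 49.7% with nApoE3, and that of Jak2 from 11.2% to 30.9% and from 17.4% to 35.8%. Tyk2 took 14.1% in ControlA and 23.9% with nApoE4, but 8.36% and 11.7% in the second experiment. Jak3 held 12.1% in ControlA, 5.59% with nApoE4, 5.34% in ControlB and 2.73% with nApoE3.

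The sum over the STATs was 58.4 ± 0.984 CPM per kb in ControlA and 50.8 ± 1.51 with nApoE4 (SD, n = 3 each), and 45.8 ± 0.764 in ControlB (SD, n = 3) and 58.1 ± 0.946 with nApoE3 (SD, n = 2), so it moved in opposite directions. Stat6 made up 83.0% of it in ControlA and 58.2% with nApoE4, and 78.0% in ControlB and 51.1% with nApoE3. Stat2 went from 4.28% to 23.7% and from 5.11% to 24.6%. Stat3 took 8.31% and 11.3% in the first experiment and 10.9% and 21.1% in the second. Taken as a ratio of counts within a sample, Stat3 to Stat5a was 2.52 to 2.55 in ControlA, 2.18 to 2.23 with nApoE4 and 2.45 to 2.53 in ControlB, and 9.50 and 8.72 with nApoE3. The ratio of Jak2 to Jak3 was 0.781 to 0.963 in ControlA and 4.72 to 5.93 with nApoE4, and 2.99 to 3.23 in ControlB and 11.8 and 12.9 with nApoE3. These ratios do not depend on the scaling between samples.

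**Figure D3:**
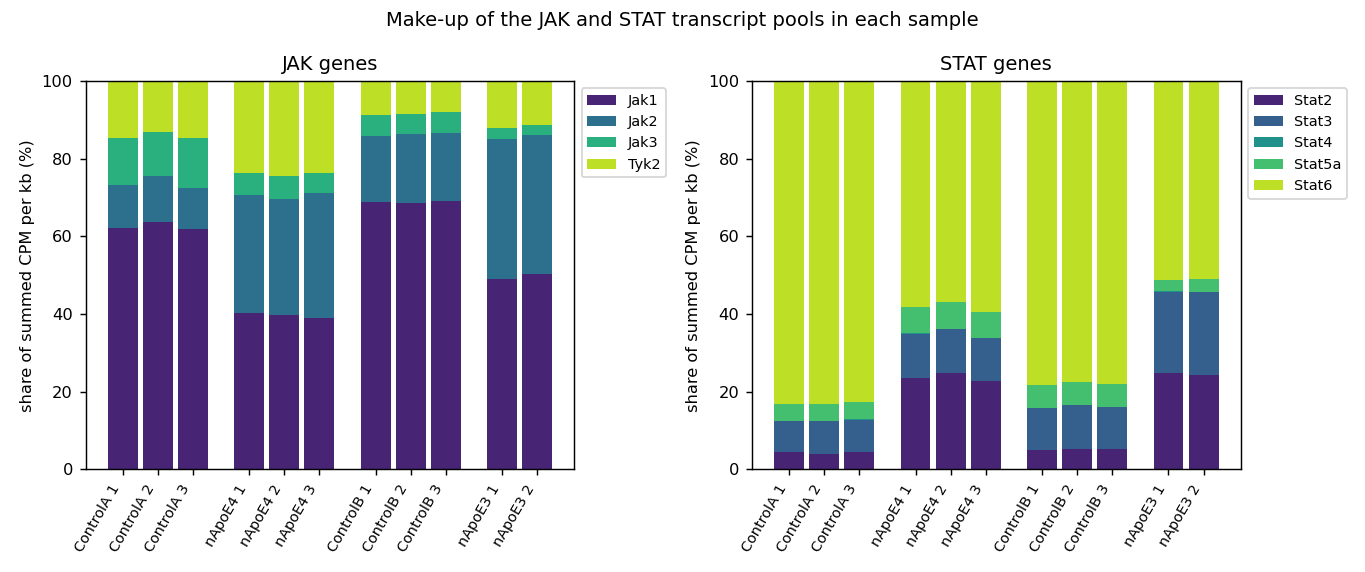
Share of each gene (vertical axis, percent) in the summed CPM per kb of 4 JAK genes, left, and 5 STAT genes, right, with 1 bar for each of the 11 samples. In every treated sample Jak2 and Stat2 take more, and Jak1 and Stat6 less, than in any control sample, and Stat4 is too low to be seen.

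The other genes of the pathway were taken from lists of ligands, receptors, inhibitors, partners and target genes. Of 21 cytokine genes, 9 passed the filter in the nApoE4 comparison and 8 of them rose, and 10 passed in the nApoE3 comparison and 8 rose, with none lower in either, while 28.6% and 33.1% of all genes rose. Most passed the filter through the treated samples, and with at least 10 counts required in every sample 2 ligands rose with either fragment. Most were at or near 0 in the controls. Il12b, a subunit of interleukin-12 and interleukin-23, had 3, 3 and 4 counts in ControlA against 2035, 2279 and 2305 with nApoE4, and 5 in each ControlB sample against 1150 and 887 with nApoE3. Il27, which encodes a subunit of interleukin-27, had 7, 3 and 3 counts against 739, 804 and 667, and 9, 7 and 10 against 626 and 501. Csf3, which encodes G-CSF, had 2, 1 and 1 counts against 193, 147 and 183, and 10, 7 and 4 against 1511 and 1366. Ifnb1, which encodes interferon beta, had 0, 2 and 2 counts in ControlA against 43, 30 and 50, and 3, 7 and 9 in ControlB against 75 and 72. For Il23a the counts were 8, 12 and 6 against 107, 94 and 138, and 10, 8 and 5 against 75 and 67. Il12a and Ebi3, which encode the other subunits of interleukin-12 and interleukin-27, had a mean of 0 CPM in every group. So had Ifng, Il2, Il6, Il21 and Csf2, and whether such genes were absent or lost in the counting was not tested. For Il12b, Il27, Csf3, Ifnb1 and Il23a every treated sample exceeded every control. These genes were named for their large changes, so this follows from the choice and adds no support. Among all genes tested the groups did not overlap, in either direction, for 63.6% with nApoE4 and 77.6% with nApoE3.

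Of 36 receptor genes, 26 were tested with nApoE4, of which 12 rose and 9 fell (28.6% higher and 28.6% lower among all genes), with a median log2 fold change of 0.11 against 0.0013 over all genes. With nApoE3, 25 were tested, of which 17 rose and 5 fell (33.1% higher and 34.6% lower among all genes), with a median of 0.42 against -0.0026. Il15ra, the alpha chain for interleukin-15, rose from 8.39 ± 0.585 to 40.9 ± 0.693 CPM with nApoE4 and from 6.99 ± 0.310 to 32.7 ± 0.476 CPM with nApoE3. Il6ra, the chain that binds interleukin-6 ahead of Stat3, fell from 41.5 ± 4.54 to 12.8 ± 0.729 CPM with nApoE4, a log2 fold change of -1.69 (SE 0.090, adjusted p = 2.38e-07), and from 38.0 ± 0.485 to 20.1 ± 0.440 CPM with nApoE3 (-0.93). Ifnlr1, a chain for interferon lambda, fell with both fragments (-1.89 and -1.81), and Prlr, the prolactin receptor, fell with nApoE4 (-2.05) and was too low to be tested with nApoE3. Il21r rose with both (1.16 with nApoE4 and 0.93 with nApoE3). Il7r, the interleukin-7 receptor, fell with nApoE4 (-1.19) and rose with nApoE3 (1.24), from 15.1 CPM in ControlA and 0.490 CPM in ControlB.

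Of 20 inhibitor genes, all of which were tested, 11 rose and 2 fell with nApoE4 and 11 rose and 5 fell with nApoE3. The number called in either direction lies near the share of all genes (57.2% and 67.7%), but rises were more common. Among all genes 28.6% rose and 28.6% fell with nApoE4, and 33.1% and 34.6% with nApoE3. Socs3, which blocks JAK activity at the interleukin-6 receptor, rose from 13.6 ± 1.19 to 104 ± 4.23 CPM with nApoE4 and from 13.2 ± 0.568 to 70.4 ± 6.23 CPM with nApoE3, with log2 fold changes of 2.94 (SE 0.076) and 2.41 (SE 0.055). Usp18, which holds back the type I interferon receptor, rose from 5.10 ± 0.557 to 28.7 ± 0.643 CPM and from 5.41 ± 0.855 to 95.6 ± 5.37 CPM, and this rise differed between the fragments (difference -1.65, adjusted p = 2.70e-06). Cish, which is induced by STAT5 proteins and acts on cytokine receptors, rose by 2.67 and 2.14 on the log2 scale, also where Stat5a fell. Socs1, an inhibitor of the kinase domain of JAKs, rose by 3.35 and 3.05, from a mean of 0.329 and 0.319 CPM.

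Of 8 partners, 3 rose and 2 fell with nApoE4 and 5 rose and 2 fell with nApoE3. Among all genes 57.2% (28.6% higher and 28.6% lower) and 67.7% (33.1% higher and 34.6% lower) were called. Irf9, which binds DNA in the complex with Stat2, rose from 9.83 ± 0.266 to 52.3 ± 1.20 CPM with nApoE4 and from 12.96 ± 3.03 to 65.7 ± 0.551 CPM with nApoE3. Its log2 fold changes of 2.42 (SE 0.060) and 2.35 (SE 0.11) were near those of Stat2, and the difference between the fragments did not pass (0.063, adjusted p = 0.827). Nmi, which binds STAT proteins, rose by 0.88 and 1.28, and Stam2, an adaptor bound to JAKs, by 0.33 and 0.82. Ncoa1, a coactivator that binds Stat6, fell (-0.55 and -0.81).

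Of 22 genes listed as targets of the Stat2 and Irf9 complex, 20 were in the count files, and Ifit1 had no counts in any group. In each fragment comparison 19 were tested and all 19 rose, against 28.6% and 33.1% of all genes. The median log2 fold change was 4.58 with nApoE4 and 4.66 with nApoE3. Some, such as Ifi44 with nApoE4 and Isg15 with both fragments, passed the filter through the treated samples, so only a rise could be called. Isg15 had means of 0.0149 CPM in ControlA, 0.576 with nApoE4, 0.0059 in ControlB and 0.348 with nApoE3. Rsad2, which encodes the antiviral protein viperin, went from 1.09 ± 0.153 to 117 ± 5.40 CPM with nApoE4 and from 5.87 ± 1.94 to 901 ± 44.6 CPM with nApoE3. Cmpk2, its neighbour and a nucleotide kinase gene, went from 0.438 ± 0.0904 to 40.4 ± 2.38 CPM and from 1.96 ± 0.673 to 213 ± 12.4 CPM. For Rtp4 the log2 fold changes were 6.38 and 6.05, and for Ifit3 they were 5.28 and 6.17. Ifi44 had 0 counts in every ControlA sample and 80, 77 and 88 with nApoE4, and 10, 4 and 6 in ControlB and 588 and 537 with nApoE3. Between the fragments 8 of the 19 differed with a smaller rise for nApoE4 and 1 with a larger. By the same test 13.9% of all genes had a lower and 14.4% a higher change for nApoE4. The gene with the larger rise was the interferon-induced gene Parp14 (0.71, adjusted p = 0.00689), which was picked after its values were seen. Before treatment 11 of the 17 tested were higher in ControlB than in ControlA and none lower. In that comparison 34.4% of all genes were higher and 34.9% lower.

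Of 18 Stat3 target genes, 14 rose and 3 fell with nApoE4 and 15 rose and 3 fell with nApoE3, with medians of 1.13 and 0.99. Among all genes 28.6% and 33.1% rose, and 28.6% and 34.6% fell. The median rise was thus of like size with both fragments, although Stat3 itself changed by 0.24 and 1.28. Single targets did differ by the test of the difference. For nApoE4, 4 of the 18 had a higher and 6 a lower change, against 14.4% and 13.9% of all genes. Saa3, an acute-phase gene, rose from 15.4 ± 2.96 to 993 ± 89.3 CPM with nApoE4 and from 23.7 ± 1.16 to 1284 ± 86.1 CPM with nApoE3. Il1rn, which encodes the interleukin-1 receptor antagonist, rose by 3.66 and 4.61, Lcn2, the lipocalin-2 gene, by 6.62 and 6.52 and Myc by 3.63 and 3.51. Several of these genes are also known targets of other inflammatory factors, so the list does not single out Stat3.

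Of 15 Stat6 target genes, 9 were tested with nApoE4, of which 4 rose and 4 fell (median -0.38), and 10 with nApoE3, of which 4 rose and 5 fell (median -0.58). Among all genes 28.6% rose and 28.6% fell with nApoE4, and 33.1% and 34.6% with nApoE3. Arg1, which encodes arginase-1, fell from 39.0 ± 2.92 to 13.9 ± 2.95 CPM with nApoE4, and in the second experiment it was at 0.372 ± 0.139 and 0.227 ± 0.0048 CPM. Pparg fell with both fragments (-2.47 with nApoE4 and -1.63 with nApoE3), from 1.45 to 0.258 CPM and from 0.648 to 0.209 CPM, and so did Klf4 (-0.82 and -1.44). Ccl24, an eosinophil chemokine, rose with nApoE4 (0.85) and fell with nApoE3 (-0.98). Tgm2, the transglutaminase-2 gene, rose with both (1.46 and 1.24), and so did Pdcd1lg2, a ligand of PD-1 (1.15 and 0.80). The chemokine gene Ccl22 had 4, 2 and 4 counts in ControlA and 157, 103 and 95 with nApoE4, and 1 in each ControlB sample and 23 and 30 with nApoE3.

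**Figure D4:**
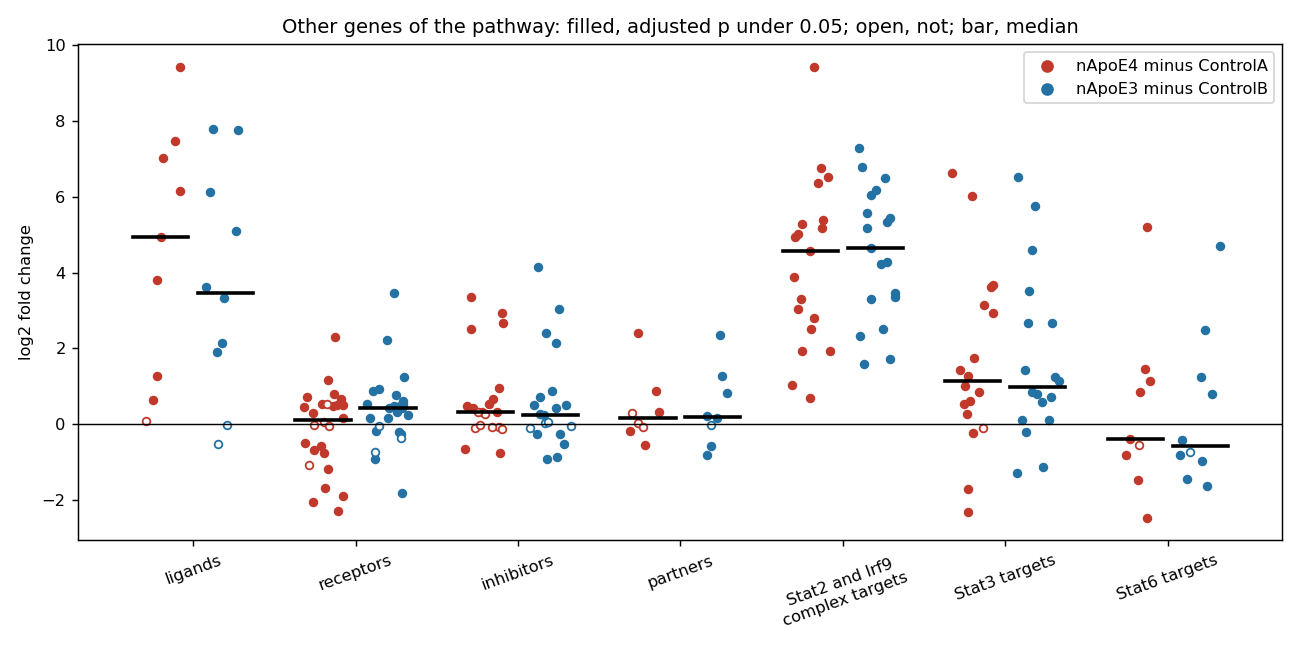
Log2 fold changes (vertical axis) of the genes on the 7 pathway lists that were tested with nApoE4 (red) and with nApoE3 (blue), with 1 point for a gene, filled where the adjusted p is under 0.05, and a black bar for the median. All points of the Stat2 and Irf9 complex targets lie above 0, with medians of 4.58 and 4.66, while those of the Stat6 targets lie on both sides.

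The genes whose pattern was most like that of each member were found by Pearson's r over the 11 samples, on log2 CPM minus the mean of the controls of the same experiment, among 8840 genes with a mean of at least 10 CPM. The samples share libraries and treatments, so r is high for any pair of genes with strong and even responses and is given as a description. The nearest genes were Il12b (r = 0.9995), Peli1 and Icam1 for Jak2, Nrp2 (0.999), Agrn and Slc7a2 for Tyk2, and Dusp16 (0.999), Tmem2 and Src for Stat2. For Stat3 they were Pik3ap1 (0.994), Slfn9 and Trim25, for Stat5a Recql4 (0.996), Aldh18a1 and Card9, and for Stat6 Plekhm1 (0.997), Frmd4b and Steap3. Jak1 was nearest to Nckap1 (0.984), Syvn1 and Pmm2 and Jak3 to Arf3 (0.982), Cluh and Iqgap3. For Stat4 the highest r was 0.836, with Sec24c, at counts too low to give it weight. No gene was near more than 1 of the members by this rule.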

How the data were processed

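Per the labels and methods, the authors trimmed reads with Trim Galore 0.5.0, mapped them to GRCm38.p6 with HISAT2 2.1.0 and counted reads on genes with HTSeq 0.11.0, and deposited raw counts for each sample. The annotation release, the strand setting and the overlap mode are not given in the sources used here. The 5 tally rows that name no gene were left out of library sizes. Treated samples were compared with the controls of their experiment by edgeR 4.0.16 in R 4.3.3 (filterByExpr, TMM, quasi-likelihood F test, Benjamini-Hochberg over all genes tested, threshold 0.05), and the difference between fragments and the control groups were tested likewise. The SE is the log2 fold change over the square root of F. Alternatives were DESeq2 1.42.0, its size factors, other count filters, thinned counts, 1 fit over all samples, a replicate block and each sample left out. The steps were tested on simulated data. Samples of a group differed by more than sampling noise. Members and lists were chosen with earlier results of these data known. Besides the members, each list names at most the 4 genes with the largest change in each comparison among genes called whose mean reached 1 CPM in a group, and 3 genes were named by likeness for each member.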

Additional observations from a re-analysis of the deposited data

Results flagged for a closer look

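For 6 of the 8 members tested the change differed between the fragments, against 28.3% of all genes tested. The test was that of the difference itself (log2 fold change with nApoE4 minus that with nApoE3, edgeR quasi-likelihood F test). The difference was -1.05 for Stat3 (adjusted p = 1.67e-07), where the rise was larger with nApoE3 in 2 of 2 treated samples than in any of the 3 with nApoE4. It was 1.03 for Stat5a (adjusted p = 1.51e-06), which lay above its controls in 3 of 3 nApoE4 samples and below them in 2 of 2 nApoE3 samples. It was -0.45 for Stat6 (adjusted p = 8.91e-05), 0.43 for Jak2 (adjusted p = 2.54e-04), -0.35 for Stat2 (adjusted p = 0.0139) and -0.19 for Jak1 (adjusted p = 0.0348). The call of Stat2 was lost with the replicate block (adjusted p = 0.0982) and without nApoE3 replicate 1 (adjusted p = 0.0697), and that of Jak1 was lost in 10 of 17 alternatives. In these differences the fragment cannot be told apart from the experiment.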

How the results depend on the processing

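The number of members called stayed within 1.5 times the main number in all 54 alternatives over the 4 comparisons. The direction and call of every member in the nApoE4 and nApoE3 comparisons held in every alternative, apart from the sign of Jak1 with nApoE4 and of Stat4 with nApoE3, neither of which was called. The log2 fold change of Jak1 with nApoE4 was -0.0025 when genes with at least 1 count were tested, and -0.0068 to 0.045 when each sample was left out. That of Stat4 with nApoE3 was -0.75 to 0.41 when each sample was left out. Calls on the difference between fragments were less stable. That of Jak1 was lost in 10 of 17 alternatives (adjusted p 0.00262 to 0.237 over all 17), that of Stat2 in 2 (0.00202 to 0.0982), and that of Tyk2 appeared in 4 (0.0174 to 0.245), DESeq2 among them (0.0496). The causes were not tested.

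Samples that share a replicate number gave no sign of pairing. The mean correlation of their deviations was -0.14 with nApoE4, -0.0031 with nApoE3 and -0.031 between the control groups. These values cannot show whether the samples were handled in pairs. With the replicate block, 7036 genes were called with nApoE4, 9783 with nApoE3, 9376 between the controls and 2307 in place of 4331 for the difference between fragments. There the Stat2 difference was -0.37 (adjusted p = 0.0982) and that of Jak1 -0.19 (adjusted p = 0.229).

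Of the list counts, 694 were within 1.5 times the main count and 62 were not, mostly counts under 5 or of the difference between fragments. With at least 10 counts in every sample, 2 ligands in place of 8 rose with either fragment, since the controls of the others were lower. The median over all genes of ControlB minus ControlA moved to 0.11 when genes with at least 1 count were tested. Depth limits Stat4 most, and the 2 samples of nApoE3 limit its SD.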

Other observations

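Receptor and ligand genes around the STATs also changed differently with the fragments, by the same test of the difference (28 receptors tested, 11 with a lower and 2 with a higher change for nApoE4, against 13.9% lower and 14.4% higher among all genes). These genes were picked after their values were seen. Csf2rb, the common beta chain of the GM-CSF and interleukin-3 receptors upstream of STAT5 proteins, had a log2 fold change of -0.76 with nApoE4 and 0.32 with nApoE3 (difference -1.09, adjusted p = 5.48e-07), so its direction was opposite to that of Stat5a with each fragment. Its near-identical copy Csf2rb2 had -0.58 and 0.42 (difference -1.01, adjusted p = 4.74e-06), and reads may be split between these copies. Il15, which encodes interleukin-15, rose by 0.65 with nApoE4 and by 1.90 with nApoE3 (difference -1.26, adjusted p = 4.29e-07), and Osm, a ligand of the interleukin-6 family, by 1.27 and 2.15 (difference -0.89, adjusted p = 1.21e-05). Among inhibitors, Pias3, which binds Stat3, had -0.064 with nApoE4, which was not called, and -0.85 with nApoE3 (difference 0.78, adjusted p = 1.83e-04).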
